A study of Medicago sativa with 9 samples.

Results

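GIGANTEA, the ADAGIO F-box proteins and the daytime pseudo-response regulators are clock-associated plant proteins, and their transcripts were measured in alfalfa leaves. Alfalfa (Medicago sativa) is a forage legume that holds each of its 8 chromosomes in 4 copies. Members were all genes of the deposited table whose description holds GIGANTEA, ADAGIO, APRR2, APRR3, APRR5, APRR7 or APRR9, where APRR stands for Arabidopsis pseudo-response regulator. An APRR name had to be followed by a space or the end of the description. Letter case was ignored, because the table writes adagio in lower case, and with capitals alone 28 genes would have matched. The rule took 37 of 164632 genes, namely 4 GIGANTEA genes, 9 ADAGIO genes and 24 pseudo-response regulator genes. Of these, 34 had a count in at least 1 library. Counts and FPKM values (fragments scaled by transcript length and by library size) were added up over genes of one description and numbered chromosome, here called summed copies. This gave 12 summed members, of which 10 reached a summed FPKM of 1 in 3 or more libraries and were tested. The other two were an APRR5 group on chromosome 2, with reads in 0 h replicate 2 alone (0.4058 FPKM), and a gene described as two-component response regulator-like APRR9 isoform X2 on chromosome 7, which had 0 counts in every library.

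Leaves came from plants given selenite, or Se(IV), an oxidised form of selenium, at 100 mg per kg for 0, 12 or 48 h, and 3 libraries were made per time. The 0 h leaves served as the reference, and no untreated leaves of 12 or 48 h are among the samples analysed here. The sources used here give no cultivar, plant age, light regime or clock hour of sampling. Duration of selenite and time of day therefore cannot be told apart for any value below. Whether replicate libraries stem from different plants is not in the labels, so p-values measure no more than the spread among libraries, which may be technical.

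GIGANTEA is a large plant protein that peaks late in the day and steadies the ADAGIO proteins. ADAGIO 1 (ZEITLUPE) and ADAGIO 3 (FKF1) carry a blue-light-sensing LOV domain and an F-box, through which they direct ubiquitin ligases to other clock and flowering proteins. In Arabidopsis, ADAGIO 3 with GIGANTEA removes cyclic dof factors, repressors of CONSTANS, and ADAGIO 1 removes the pseudo-response regulators APRR1 (TOC1) and APRR5. The pseudo-response regulators APRR9, APRR7 and APRR5 follow one another through the Arabidopsis day and repress the morning genes CCA1 and LHY.

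Library depth lay between 39936347 and 56137145 counts. The scaling factors by trimmed mean of M values (TMM) were 1.22 to 1.30 at 12 h, 0.844 to 0.987 at 0 h and 0.82 to 0.916 at 48 h. Library totals alone, on which FPKM rests, moved the median log2 change of all summed copies to 0.44 for 12 h against 0 h. For 48 h the medians became -0.15 against 0 h and -0.61 against 12 h. With TMM those medians were 0.00, -0.04 and -0.06, so that a log2 change given below is relative to the bulk of genes and is lower at 12 h than a ratio of FPKM levels. Libraries also differed in how reads fell on the 4 chromosome copies. Pairs of 12 h libraries placed 9.25% to 9.39% of their reads differently among copies, and 48 h replicates 1 and 3 placed 10.4% differently, while for the other pairs of one time this share was 20.8% to 23.9%. With the 12 h libraries summed to 1 column and 48 h replicates 1 and 3 to another, no member passed the test in any comparison, and neither did any of the 19869 summed copies by edgeR, although 2290, 2528 and 2749 of them had an unadjusted p under 0.05. All edgeR calls below treat the 9 libraries as separate. Checked against markers, the small subunit of Rubisco, a leaf protein of photosynthesis, was at a summed 58139 to 101119 FPKM, and leghemoglobins, nodule proteins, were at 0 counts in all 10 matched groups.

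GIGANTEA transcripts fell at 12 h of selenite and were back above the 12 h level at 48 h. The summed level of protein GIGANTEA isoform X1 on chromosome 1 was 93.27, 51.76 and 62.02 FPKM in the 0 h libraries. It was 14.13, 5.482 and 9.111 FPKM at 12 h and 42.69, 40.52 and 50.01 FPKM at 48 h. The 3 times did not overlap, and the order was 0 h, 48 h, 12 h. On the log2 scale the change at 12 h against 0 h was -3.05 ± 0.27 (SE), or 8.27-fold lower (edgeR, adjusted p = 0.0005). The rise from 12 to 48 h was 2.54 ± 0.26 (adjusted p = 0.000641). Between 48 h and 0 h the change was -0.51 ± 0.25, with a 95% interval of -1.07 to 0.05, and did not pass the test (adjusted p = 0.257). Summing the like libraries left the sizes at -3.05 and 2.57 with adjusted p of 0.126 and 0.138, and no other alternative lost either call. In bulk leaves, fewer cells of a type and less RNA per cell cannot be told apart.

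**Figure D1:**
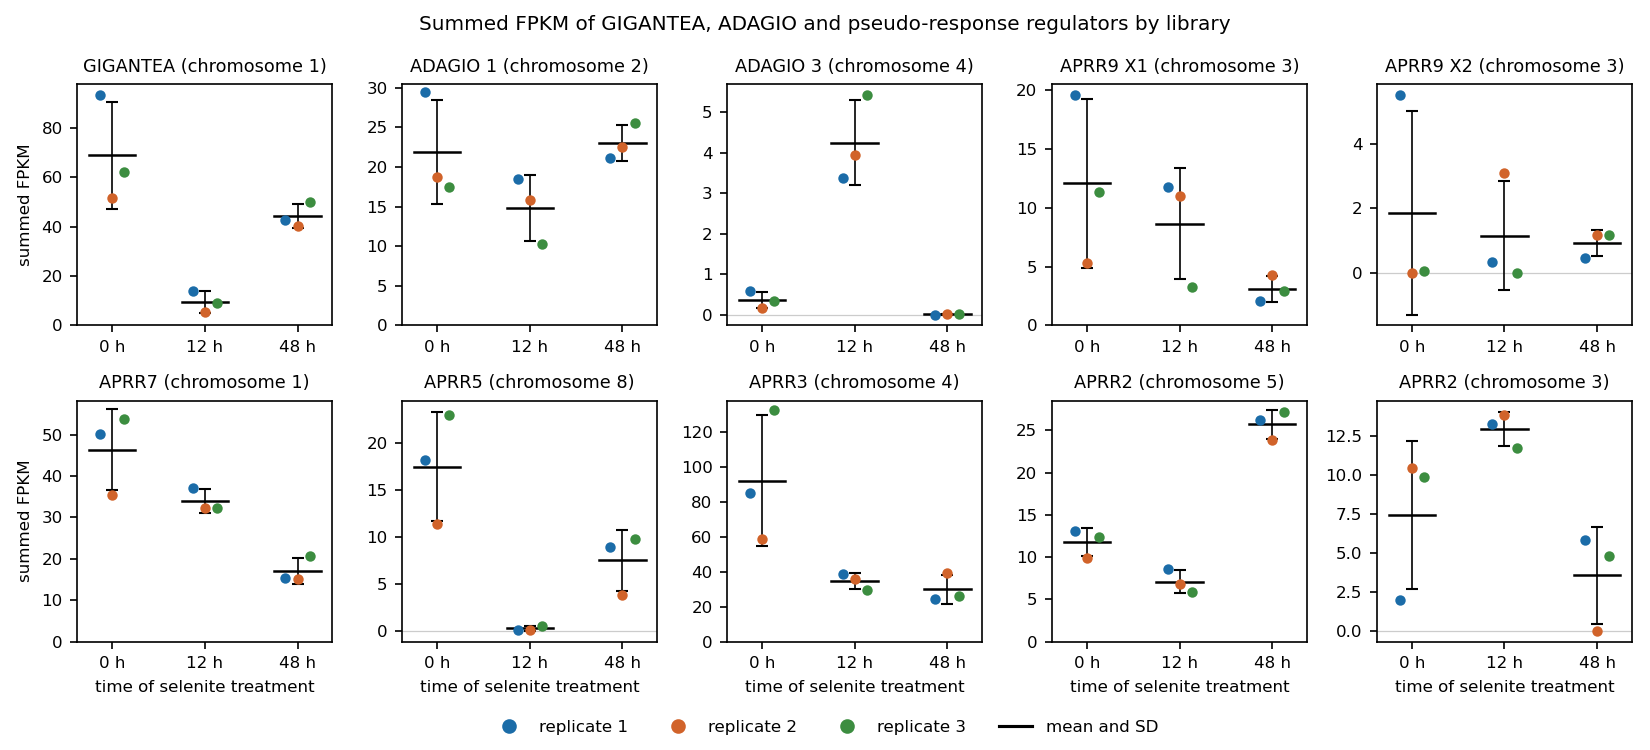
Summed FPKM (linear vertical axes, 1 panel per member) of the 10 tested members in the 3 libraries of each time of selenite treatment; dots are libraries, long bars the mean and whiskers the SD. GIGANTEA and APRR5 sit lowest at 12 h, ADAGIO 3 highest at 12 h, APRR2 of chromosome 5 highest at 48 h, and APRR7 lowest at 48 h.

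The 4 GIGANTEA gene models lay on 2 copies of chromosome 1, in the coordinates of the deposited table, whose build the sources used here do not name. Copy 1 held MS.gene88890 (70474922 to 70486206), MS.gene006121 (70531949 to 70539730) and the short MS.gene88891 (70606699 to 70607936, 1238 bp), all on the plus strand. Copy 2 held MS.gene60718 (71170690 to 71178510) on the minus strand. Because FPKM divides by length, the short model supplied 45.74 of the 93.27 FPKM of 0 h replicate 1 with 10.2% of the counts. Each of the 3 longer models fell by itself at 12 h against 0 h, with a log2 change of -4.11 ± 0.45 for MS.gene006121 (adjusted p = 0.00367), -2.67 ± 0.34 for MS.gene60718 (0.00593) and -2.59 ± 0.29 for MS.gene88890 (0.00388). For the short model the change was -3.49 ± 1.38 and did not pass (adjusted p = 0.188), with 0 counts in 12 h replicate 2 against 193 and 143 in its companions. MS.gene006121 held 27.4% ± 7.91 (SD, n = 3) of GIGANTEA counts at 0 h, 13.3% ± 2.15 at 12 h and 28.3% ± 3.02 at 48 h. MS.gene88890 held 42.5% ± 0.956, 56.5% ± 1.54 and 39.1% ± 2.85. Near-identical copies can exchange reads, and how the authors' counting placed them is not given, so these shares are uncertain.

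ADAGIO 1 moved less than GIGANTEA. Its summed level on chromosome 2 was 29.44, 18.78 and 17.43 FPKM at 0 h, 18.43, 15.82 and 10.24 FPKM at 12 h, and 21.09, 22.56 and 25.5 FPKM at 48 h. The 12 h libraries overlapped those of 0 h and lay below those of 48 h, while 0 h and 48 h overlapped. The log2 change at 12 h against 0 h was -0.97 ± 0.25, a 1.96-fold fall (edgeR, adjusted p = 0.0383). It rose from 12 to 48 h by 1.15 ± 0.25 (adjusted p = 0.0149), and the change at 48 h against 0 h was 0.18 ± 0.25, with an interval of -0.40 to 0.75 (adjusted p = 0.741). The call at 12 h was lost in 14 of 21 alternatives, among them leaving out 0 h replicate 1 (0.106) or replicate 3 (0.0601), 12 h replicate 1 (0.07), replicate 2 (0.101) or replicate 3 (0.0765), and 48 h replicate 1 (0.0628) or replicate 3 (0.058); these values are adjusted p. The fall at 12 h was also lost, and smaller than with TMM, under library totals (-0.54, adjusted p = 0.199) and with limma (-0.53 and -0.56, adjusted p = 0.179 and 0.183). The rise from 12 to 48 h was lost under library totals (0.128) and with limma (0.0957 and 0.0971).

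The 4 ADAGIO 1 genes, 1 on each copy of chromosome 2, had nearly equal shares of the counts in 8 libraries but not in 12 h replicate 3. MS.gene59034 on copy 4 (52871124 to 52877884) held 93.8% of ADAGIO 1 counts there and 24.2% to 27.2% in the other libraries. MS.gene060408 and MS.gene84160 were at 0 counts in that library, against 415 and 391 in 12 h replicate 2. No single copy passed the test in any comparison, and MS.gene59034 changed by -0.26 ± 0.38 at 12 h against 0 h (adjusted p = 0.777). Without 12 h replicate 3 the summed change was -0.77.

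**Figure D2:**
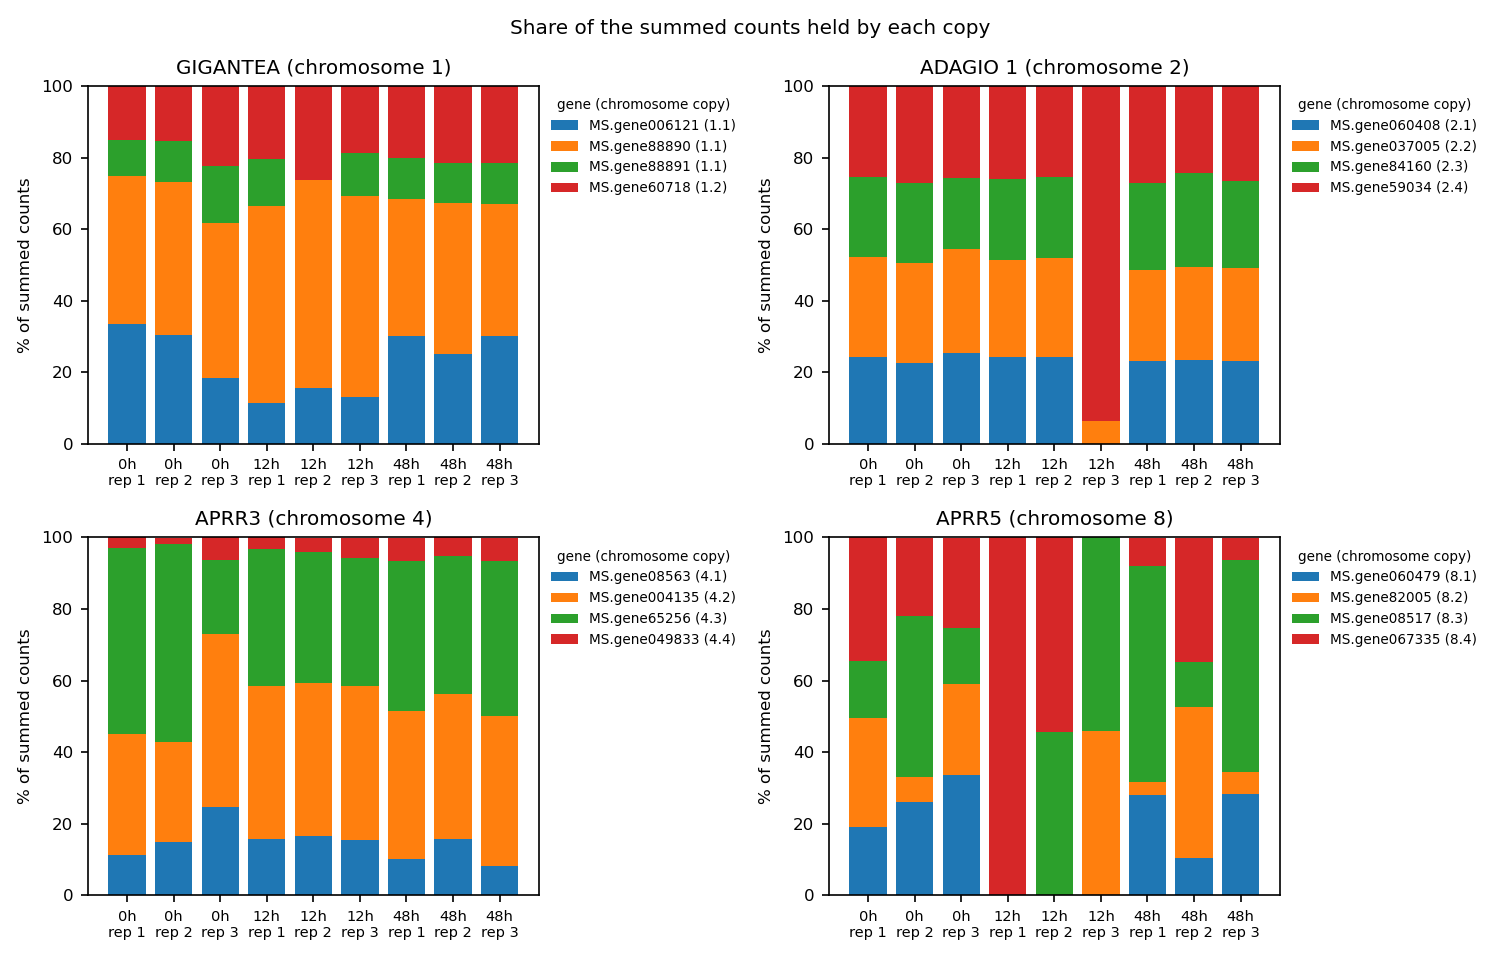
Share of a member's summed counts (% of counts, stacked to 100) held by each gene in each of the 9 libraries, for GIGANTEA, ADAGIO 1, APRR3 and APRR5; colours are genes, with the chromosome copy in brackets. In 12 h replicate 3 a single gene holds 93.8% of ADAGIO 1 counts, and the GIGANTEA gene MS.gene88890 takes a higher share at 12 h (56.5%) than at 0 h (42.5%) or 48 h (39.1%).

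ADAGIO 3 had its highest level at 12 h, where GIGANTEA had its lowest, and its own lowest level at 48 h. On chromosome 4 the summed level was 0.571, 0.1579 and 0.3464 FPKM at 0 h, 3.373, 3.951 and 5.409 FPKM at 12 h, and 0, 0.005197 and 0.007312 FPKM at 48 h. The 3 times were fully separate, in the order 12 h, 0 h, 48 h. It passed the filter only through its 12 h libraries, so a difference from 12 h was built into its being tested. The log2 change at 12 h against 0 h was 3.14 ± 0.67, or 8.81-fold higher (edgeR, adjusted p = 0.018). Counts were 89 over the 0 h libraries, 1252 over 12 h and 2 over 48 h. The scaled ratio of 0 h to 48 h was 41.6, with an exact 95% counting interval of 11.2 to 349, and that of 12 h to 48 h was 362 (99.9 to 2990). The edgeR adjusted p was 0.0134 for 48 h against 0 h and 0.000819 for 48 h against 12 h. The rise at 12 h was lost without 12 h replicate 1 (0.0562), replicate 2 (0.0679) or replicate 3 (0.0571), and with a replicate block (0.0585). The fall from 0 to 48 h was lost with only the 6 libraries compared (0.112), with limma (0.307 and 0.0611) or with a replicate block (0.054). Of its 5 gene models, 4 lay between positions 1320126 and 1412968 of copy 2, and the fifth, on copy 4, had 13 counts in 0 h replicate 1 alone. MS.gene62679 (copy 2, 1410377 to 1412968) held 47.2% ± 6.02 of counts at 12 h. This gene was at 0 counts in every 48 h library and at least 38.1-fold lower there than at 12 h, against a floor of 3 counts per library.

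APRR9, the earliest of the daytime regulators in Arabidopsis, varied widely between libraries of one time, and no change of it passed the test by edgeR. The gene two-component response regulator-like APRR9 isoform X1 on chromosome 3 was at 19.62, 5.293 and 11.33 FPKM at 0 h. It was at 11.78, 10.98 and 3.241 FPKM at 12 h and at 2.042, 4.29 and 2.939 FPKM at 48 h. All 48 h libraries lay below all 0 h libraries, and 12 h overlapped both. The log2 change at 48 h against 0 h was -1.86 ± 0.60 and missed the threshold by edgeR (adjusted p = 0.103), while DESeq2 passed it (-1.84, adjusted p = 0.0198). At 12 h against 0 h it was -0.89 ± 0.58 (adjusted p = 0.36), with an interval of -2.22 to 0.44. The 3 isoform X1 genes showed the same sign at 48 h against 0 h, from -2.04 for MS.gene06818 to -1.35 for MS.gene06605, and MS.gene013498 (copy 4, 84807500 to 84810899), the most abundant, was at -1.97 ± 0.64 (adjusted p = 0.182).

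On chromosome 3, two-component response regulator-like APRR9 isoform X2 was a single gene, MS.gene057249, on copy 2 (78072640 to 78076029). Its level was 5.525, 0 and 0.05964 FPKM at 0 h, 0.3391, 3.098 and 0 FPKM at 12 h, and 0.4571, 1.157 and 1.176 FPKM at 48 h. Within a time it ran from 591 counts to 0, and all times overlapped. None of its changes passed (adjusted p = 0.811, 0.87 and 0.961), with SE of 2.11 to 2.12 on the log2 scale. With both isoforms of the chromosome summed, a grouping chosen after the values were seen, the change was -0.91 ± 0.65 at 12 h and -1.67 ± 0.67 at 48 h against 0 h (adjusted p = 0.409 and 0.172).

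APRR7, which follows APRR9 in the Arabidopsis day, was lower at 12 h and at 48 h than at 0 h. On chromosome 1 its level was 50.11, 35.38 and 53.74 FPKM at 0 h, 37.22, 32.18 and 32.38 FPKM at 12 h, and 15.4, 15.23 and 20.64 FPKM at 48 h. The 48 h libraries lay below all others, and 0 h and 12 h overlapped. It fell at 48 h against 0 h, with a log2 change of -1.37 ± 0.22, or 2.59-fold lower (edgeR, adjusted p = 0.0134). That call was lost in 3 of 21 alternatives, among them leaving out 48 h replicate 1 (0.0684). At 12 h against 0 h the change was -0.89 ± 0.22 (adjusted p = 0.0326). That call was lost in 13 of 21 alternatives, among them leaving out 0 h replicate 1 or 3, any 12 h library, or 48 h replicate 1, with adjusted p of 0.0554 to 0.119. From 12 to 48 h the change was -0.48 ± 0.22 (adjusted p = 0.155), and it passed under scaling by library totals (-1.03, adjusted p = 0.00984). Of its 3 genes the most abundant, MS.gene30890 (copy 2, 50493962 to 50502780), was at -1.58 ± 0.30 at 48 h against 0 h (adjusted p = 0.0528), while MS.gene029885 (copy 4, 53975840 to 53985068) fell at 48 h against 0 h (-1.81 ± 0.29, adjusted p = 0.0381). The share of MS.gene073800 was 28.9% ± 5.32 of APRR7 counts at 0 h and 40.9% ± 3.03 at 48 h.

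APRR5, a repressor of morning genes that acts late in the Arabidopsis day, showed the widest fall among the members at 12 h. On chromosome 8 it was at 18.14, 11.32 and 22.98 FPKM at 0 h, 0.09258, 0.09061 and 0.4907 FPKM at 12 h, and 8.856, 3.792 and 9.769 FPKM at 48 h. No times overlapped, and the order was 0 h, 48 h, 12 h, as for GIGANTEA. The change at 12 h against 0 h was -6.66 ± 0.80 on the log2 scale, or 101-fold lower (edgeR, adjusted p = 0.00165), and the rise from 12 to 48 h was 5.48 ± 0.76 (adjusted p = 0.00216). The change at 48 h against 0 h was -1.19 ± 0.62, with an interval of -2.61 to 0.23 (adjusted p = 0.296). Summing the like libraries gave -6.59 and 5.27 for the first pair, with adjusted p of 0.11 and 0.123.

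The 4 APRR5 genes, 1 on each copy of chromosome 8, all had negative changes at 12 h. MS.gene060479 (copy 1, 76030237 to 76034045) was at 346, 257 and 680 counts at 0 h and at 0 counts in every 12 h library, which is at least 234-fold lower against a floor of 3 counts per library. MS.gene067335 (copy 4, 70798197 to 70802169) fell as well (-6.94 ± 1.26, adjusted p = 0.0197). MS.gene08517 (copy 3, 68145648 to 68149481), the most abundant by mean FPKM, and MS.gene82005 were at -5.56 ± 1.52 and -6.09 ± 1.91 and did not pass (adjusted p = 0.0745 and 0.108). At 48 h the libraries disagreed on the copies, with MS.gene08517 at 60.4% and 59.3% of APRR5 counts in replicates 1 and 3 and 12.7% in replicate 2.

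APRR3, which in Arabidopsis shields APRR1 from ADAGIO 1, was the most abundant member at 0 h by mean level. On chromosome 4 it was at 85.34, 58.91 and 132.5 FPKM at 0 h, 38.63, 35.69 and 29.83 FPKM at 12 h, and 24.42, 39.27 and 26.04 FPKM at 48 h. All 0 h libraries lay above the rest, and 12 h and 48 h overlapped. The change was -1.87 ± 0.37 at 12 h (edgeR, adjusted p = 0.0135) and -1.56 ± 0.37 at 48 h against 0 h (adjusted p = 0.0416). From 12 to 48 h it was 0.31 ± 0.36 (adjusted p = 0.58), a sign that turned to -0.25 under scaling by library totals. The first call was lost without 12 h replicate 1 (0.0529) or 2 (0.057). The call at 48 h was lost in 11 of 21 alternatives, with adjusted p of 0.0556 to 0.158 on leaving out any library except 0 h replicate 2 or 48 h replicate 2. The most abundant APRR3 gene, MS.gene004135 (copy 2, 42878658 to 42883849), was at -1.73 ± 0.53 at 12 h against 0 h and did not pass by itself (adjusted p = 0.1), while MS.gene65256 (copy 3, 41066552 to 41071752) passed (-1.81 ± 0.28, adjusted p = 0.0111). MS.gene65256 held 52.1%, 55.5% and 20.7% of APRR3 counts in the 0 h libraries.

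APRR2 differs from the other members in that it pairs its receiver-like domain with a Myb-like DNA-binding domain instead of a CCT domain. On chromosome 5 it was at 13.06, 9.935 and 12.39 FPKM at 0 h, 8.634, 6.8 and 5.869 FPKM at 12 h, and 26.22, 23.85 and 27.15 FPKM at 48 h. The 3 times were separate in the order 48 h, 0 h, 12 h, which no other tested member showed without overlap. It fell at 12 h (-1.17 ± 0.21, edgeR, adjusted p = 0.00906) and rose from 12 to 48 h by 2.37 ± 0.22, or 5.19-fold (adjusted p = 0.000413). It was higher at 48 h than at 0 h by 1.21 ± 0.21 (adjusted p = 0.016). That call was lost in 4 of 21 alternatives, among them a replicate block (0.0511) and leaving out 48 h replicate 1 (0.0695) or 3 (0.0536). MS.gene21488 (copy 3, 7169103 to 7178878) and MS.gene015332 (copy 4, 7919935 to 7924637) held most of its counts, and each rose from 12 to 48 h, by 2.68 ± 0.37 and 1.93 ± 0.29 (adjusted p = 0.00618 and 0.00822).

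A second APRR2 gene, MS.gene53947 on chromosome 3, followed another course. It was at 1.954, 10.42 and 9.878 FPKM at 0 h, 13.28, 13.87 and 11.73 FPKM at 12 h, and 5.811, 0 and 4.816 FPKM at 48 h. The 12 h libraries lay above all others in FPKM, and 0 h and 48 h overlapped. No change passed the test, with 0.33 ± 1.24 at 12 h against 0 h (adjusted p = 0.898) and -1.38 ± 1.26 at 48 h against 12 h (adjusted p = 0.475). Its single gene had 0 counts in 48 h replicate 2, against 164 and 141 in the other 48 h libraries. Without 0 h replicate 1 the first change turned to -0.12.

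**Figure D3:**
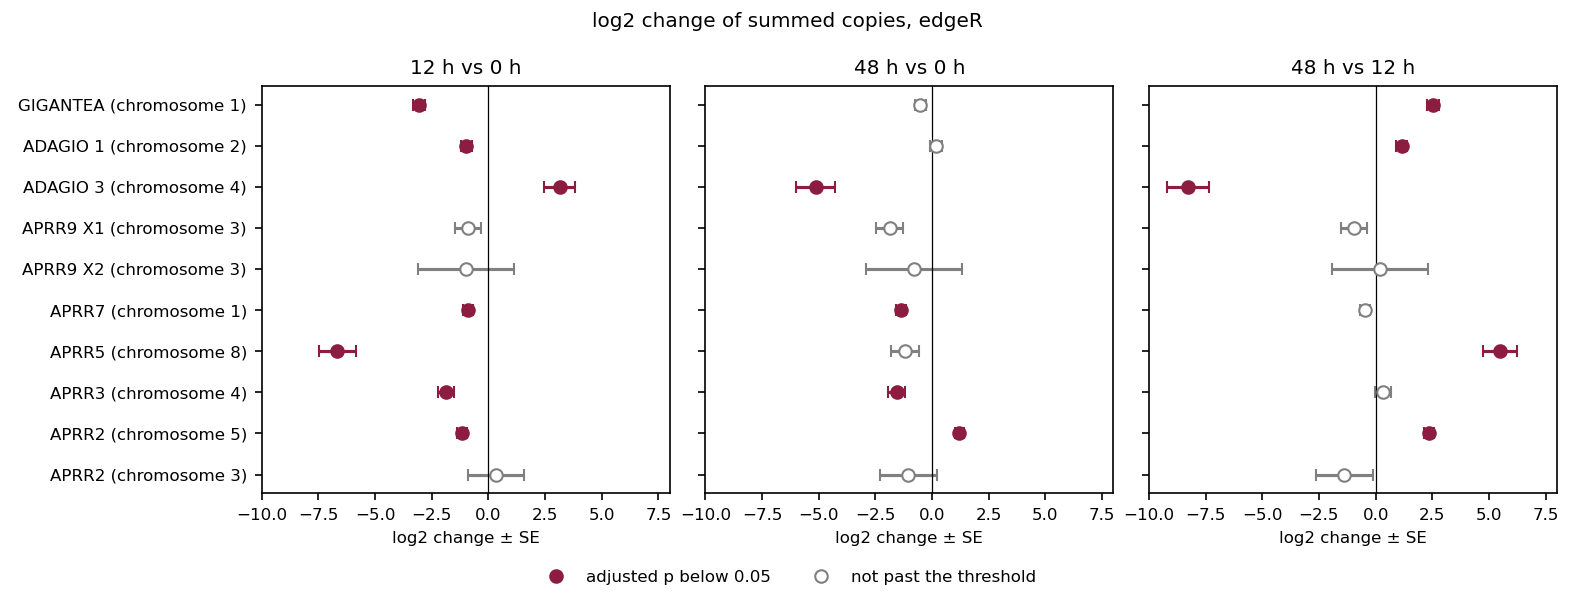
Log2 change of each of the 10 tested members in the 3 comparisons, by edgeR on summed copies; points are estimates, whiskers the SE, and filled points have an adjusted p below 0.05. At 12 h against 0 h, 6 members were lower and ADAGIO 3 was higher; at 48 h against 12 h, GIGANTEA, ADAGIO 1, APRR5 and APRR2 of chromosome 5 were higher.

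At 12 h against 0 h, 1 of the 10 tested members was called higher and 6 lower, beside 13.3% of all summed copies called in either direction, 4.92% higher and 8.35% lower. ADAGIO 3 was the one higher, and GIGANTEA, ADAGIO 1, APRR3, APRR5, APRR7 and APRR2 of chromosome 5 were lower. Because ADAGIO 3 was tested only through its 12 h libraries, its call adds nothing to the tally, and without it 0 of 9 members were higher and 6 lower. The median log2 change of the members was -0.98, against 0.00 over all summed copies. Leaving out 12 h replicate 1, 2 or 3 reduced the calls from 7 to 3, 3 and 4, and GIGANTEA, APRR5 and APRR2 of chromosome 5 kept theirs each time.

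At 48 h against 0 h, 1 member was higher and 3 were lower, beside 6.90% of all summed copies called, 3.56% higher and 3.34% lower. APRR2 of chromosome 5 rose, and ADAGIO 3, APRR3 and APRR7 fell. The members' median was -1.12, against -0.04 over all. Calls dropped from 4 to 1 without 48 h replicate 1 and to 2 without replicate 3, and to 1 with only the 6 libraries compared.

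At 48 h against 12 h, 4 members were higher and 1, ADAGIO 3, was lower, beside 21.7% of all summed copies called, 12.3% higher and 9.37% lower. The difference of ADAGIO 3 from 12 h was again built into its being tested, and without it 4 of 9 members were higher and 0 lower. The members' median was 0.24, against -0.06 over all. The 3 comparisons share libraries and are not independent of each other. As single genes, 27 members were tested. At 12 h against 0 h, 0 were higher and 6 lower, beside 1.58% and 4.29% of all single genes (5.88% in either direction). For 48 h against 0 h, 0 were higher and 1 lower, beside 0.647% and 0.497% (1.14%). For 48 h against 12 h, 7 were higher and 1 lower, beside 6.96% and 3.61% (10.6%).

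Across members, mean levels at 0 h ran in the order APRR3 (92.24 ± 37.26 FPKM, SD, n = 3), GIGANTEA (69.01 ± 21.62), APRR7 (46.41 ± 9.72), ADAGIO 1 (21.88 ± 6.578), APRR5 (17.48 ± 5.859), APRR9 isoform X1 (12.08 ± 7.192), APRR2 of chromosome 5 (11.8 ± 1.645), APRR2 of chromosome 3 (7.417 ± 4.739), APRR9 isoform X2 (1.861 ± 3.173) and ADAGIO 3 (0.3584 ± 0.2068). These are FPKM levels, per length, and 37.04 of the 69.01 FPKM of GIGANTEA came from its short model. Neighbours in this order overlapped between libraries, except APRR7 and ADAGIO 1, whose libraries were separate. At 12 h GIGANTEA stood at 9.575 ± 4.343 FPKM and APRR5 at 0.2246 ± 0.2304, while APRR3 and APRR7 stood near each other at 34.72 ± 4.476 and 33.93 ± 2.851. At 48 h GIGANTEA stood at 44.41 ± 4.972 FPKM, of which the short model MS.gene88891 supplied 23.27 ± 2.626, and APRR3 at 29.91 ± 8.147, so their order rests on that model.

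Over the 9 libraries, levels as log2(CPM + 1), where CPM is the count scaled to library size, gave a Pearson r of 0.96 between GIGANTEA and APRR5 and 0.91 between GIGANTEA and ADAGIO 1. ADAGIO 3 ran against GIGANTEA (-0.88) and against APRR2 of chromosome 5 (-0.93). APRR7 went with APRR3 (0.84) and with APRR9 isoform X1 (0.78), whereas GIGANTEA and APRR7 gave 0.30. APRR3 did not belong to one side, with 0.70 for APRR9 isoform X1, 0.69 for APRR5 and 0.64 for GIGANTEA. These values describe 9 libraries that share 3 times and their depth, and carry no test.

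Among 6854 other summed copies with a mean of at least 10 FPKM, those closest to GIGANTEA by the same r were a malate dehydrogenase on chromosome 1 (0.994) and the chloroplast sodium-dependent phosphate transport protein 1 on chromosome 3 (0.993). Next came a beta-amyrin 28-oxidase-like gene on chromosome 4 (0.990), a chloroplast early light-induced protein on chromosome 1 (0.989) and B-box zinc finger protein 32 on chromosome 4 (0.988). Mean FPKM at 0, 12 and 48 h was 167, 81.9 and 130 for the malate dehydrogenase, and 113, 0.14 and 76.6 for B-box zinc finger protein 32. Genes of very unequal swing thus shared the order 0 h, 48 h, 12 h of mean levels. Closest to APRR9 isoform X1 were GPN-loop GTPase QQT2 (0.931), a translation initiation factor 2 subunit gamma (0.923), a PRP4 homolog kinase (0.917), the pentatricopeptide repeat protein At1g02150 (0.906) and probable protein phosphatase 2C 50 (0.895). The APRR9 list reached lower r than the GIGANTEA list. Mean FPKM at 0, 12 and 48 h was 12.4, 14.7 and 8.85 for QQT2 and 12.2, 15.9 and 6.54 for At1g02150.

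Morning clock genes, which the daytime regulators repress in Arabidopsis, moved in both directions at 12 h. Of 12 tested LHY, REVEILLE and LNK groups, 1 was higher and 6 were lower at 12 h against 0 h (median log2 change -1.71), and 2 were higher and 0 lower at 48 h against 0 h (median 0.14). LHY isoform X1 on chromosome 7 was at 212 ± 22 FPKM (SD, n = 3) at 0 h, 0.835 ± 0.325 at 12 h and 791 ± 99.8 at 48 h, a change of -8.38 ± 0.38 and then 2.0 ± 0.29 against 0 h (adjusted p = 9.87e-05 and 0.00893). Both LNK1 groups and REVEILLE 8 had the same adjusted p at 12 h. LHY was thus higher at 48 h than at 0 h while APRR7 and APRR3 were lower. At 12 h against 0 h, however, LHY was lower together with APRR5 (-6.66), APRR3 (-1.87) and APRR7 (-0.89). Any link between these genes was not tested.

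Most evening clock genes were higher at 12 h than at 0 h, but the filter built in part of this count. Of 7 tested groups, 5 were higher and 0 lower at 12 h against 0 h (median 2.98), and 5 were lower and 1 higher at 48 h against 12 h (median -4.56). Among those higher at 12 h, JMJ30 on chromosome 4 was at 0.0457 FPKM at 0 h, 38.3 at 12 h and 0.0363 at 48 h. It passed the filter only through its 12 h libraries, so its differences from 12 h were built into its being tested. APRR1 on chromosomes 3 and 8, at means of 1.05 and 1.26 FPKM at 0 h, also needed 12 h libraries to pass the filter. The counts against 12 h therefore rest partly on JMJ30 and APRR1, and the median of 2.98 is itself the value of APRR1 on chromosome 3. Outside these groups, EARLY FLOWERING 3 and EARLY FLOWERING 4 were called higher at 12 h against 0 h. The ELF4-LIKE 4 groups did not pass there (edgeR, adjusted p = 0.383 and 0.105). The one higher from 12 to 48 h was ELF4-LIKE 4 on chromosome 2 (21.7 and 44.3 FPKM, adjusted p = 0.02), which was at 22.9 FPKM at 0 h. EARLY FLOWERING 4, a member of the evening complex, on chromosome 3 was at 2.27 ± 0.854 FPKM at 0 h, 157 ± 23.3 at 12 h and 1.42 ± 0.544 at 48 h (5.63 ± 0.37 at 12 h against 0 h, adjusted p = 0.000207). None of the 7 passed at 48 h against 0 h. The smallest adjusted p there was that of APRR1 on chromosome 3, a pseudo-response regulator outside the rule (-1.51 ± 0.43, adjusted p = 0.0717).

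**Figure D4:**
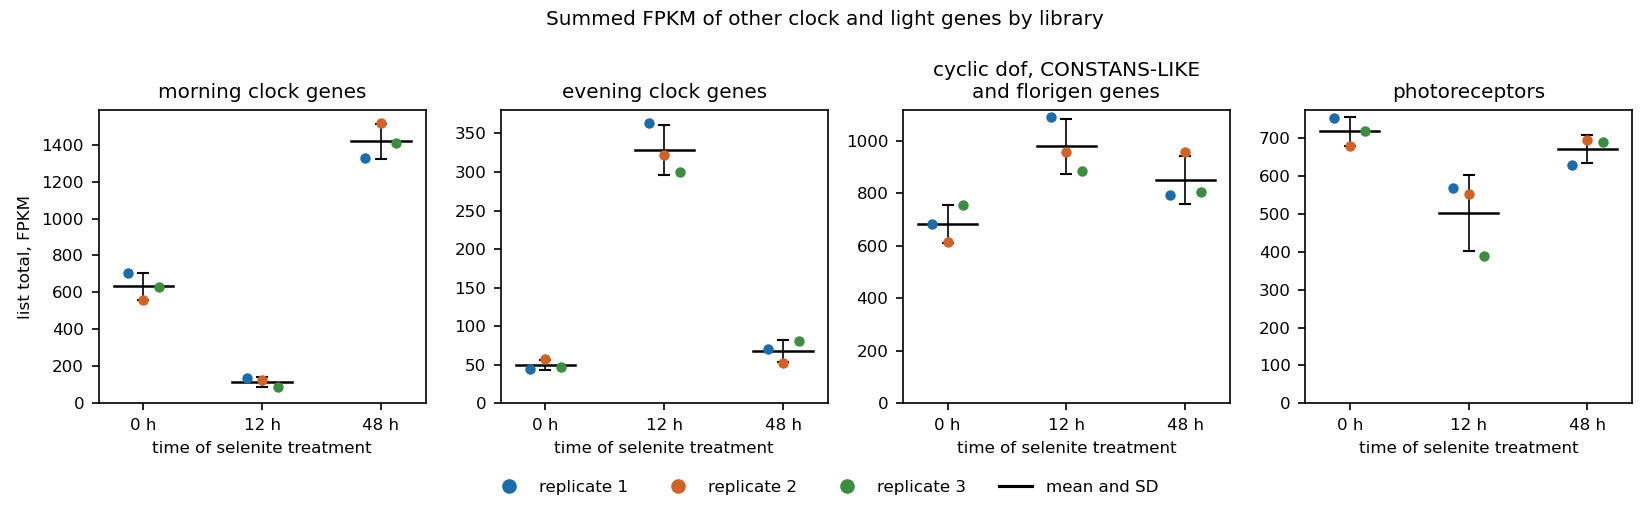
Summed FPKM (linear vertical axes from 0) of 4 lists of other clock and light genes in each library, with dots for libraries, long bars for the mean and whiskers for the SD. Morning genes run from 561 to 707 at 0 h, 86.2 to 137 at 12 h and 1326 to 1514 at 48 h, and evening genes from 44.7 to 57, 300 to 364 and 52.8 to 80.8.

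Cyclic dof factors, targets of ADAGIO 3 with GIGANTEA in Arabidopsis, were listed together with CONSTANS-LIKE and florigen genes, most of which act downstream or are not known as targets. Of 22 tested groups, 5 were higher and 7 lower at 12 h against 0 h (median -0.43), 2 higher and 0 lower at 48 h against 0 h (median 0.33), and 9 higher and 6 lower at 48 h against 12 h (median 0.62). Cyclic dof factors, a subfamily singled out after its values were seen, had 3 of 5 groups lower at 12 h and 4 of 5 higher from 12 to 48 h, with 0 called at 48 h against 0 h. Of 16 CONSTANS-LIKE groups, 5 were higher and 4 lower at 12 h. Among those higher, CONSTANS-LIKE 9 on chromosome 3 (0.397, 115 and 0.583 FPKM at 0, 12 and 48 h) passed the filter only with its 12 h libraries. The same holds for CONSTANS-LIKE 7 on chromosome 5 (0.145, 12.8 and 0 FPKM), called lower from 12 to 48 h. Their differences from 12 h were built into their being tested. CONSTANS-LIKE 4 on chromosome 2 was at 92.8 ± 30.6 FPKM at 0 h and 0.727 ± 0.27 at 12 h (-7.34 ± 0.48, adjusted p = 0.000207). CONSTANS-LIKE 2 on chromosome 7 was higher at 48 h than at 0 h (76.9 ± 6.77 against 25.7 ± 5.34 FPKM, 1.64 ± 0.35, adjusted p = 0.0305).

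ADAGIO proteins act through ligases that contain SKP1-like proteins and cullin-1. Of 17 tested SKP1-like and cullin-1 groups, 0 passed at 12 h against 0 h (median 0.11), and 1, cullin-1 on chromosome 7, was lower at 48 h against 0 h (-0.73 ± 0.18, adjusted p = 0.0464). Over all summed copies 13.3% were called at 12 h and 6.90% at 48 h against 0 h. For 48 h against 12 h the share was 21.7%, with 12.3% higher and 9.37% lower. Each count of a list of other genes is to be read beside the share of its own comparison. The smallest adjusted p at 12 h was 0.0677, of a cullin-1 gene on no numbered chromosome. Of 14 tested photoreceptor groups, which share light sensing with the ADAGIO proteins, 1 was higher and 4 lower at 12 h (median -0.39), and 2 were higher and 1 lower at 48 h against 0 h (median 0.60). The ultraviolet-B receptor UVR8 on chromosome 7 fell at 12 h (-4.17 ± 0.32, adjusted p = 0.000312), and cryptochrome DASH on chromosome 3 fell at 48 h (-1.18 ± 0.21, adjusted p = 0.0187).

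Some markers of vascular and secondary-wall cells were lower at 12 h, as GIGANTEA was. Of 7 tested groups, 3 were lower at 12 h against 0 h (median -3.05) and 6 were higher at 48 h against 12 h (median 2.99). Among these 6, laccase-11 on chromosome 5 (0.641, 0.0393 and 1.38 FPKM at 0, 12 and 48 h) needed 48 h libraries to pass the filter. Its difference between 12 and 48 h was thus built into its being tested. Cellulose synthase subunit 8 on chromosome 4 had the opposite sign in both comparisons and did not pass (0.18 and -0.64, adjusted p = 0.754 and 0.169). The summed level of the list was 16.5 to 60.3 FPKM at 0 h, 7.28 to 9.23 at 12 h and 13.8 to 51 at 48 h, with 2 of 11 matched groups, an annotation each of cellulose synthase subunits 4 and 7, at 0 counts in every library. Laccase-4 on chromosome 3 had the smallest adjusted p of the list at 12 h (-3.17 ± 0.74, adjusted p = 0.026). Among the Rubisco small subunit groups, 0 of 4 passed in any comparison. A list meant for root markers was matched mostly by CASP-like proteins. Of its 17 tested groups, 0 were higher and 2 lower at 12 h, with CASP-like protein 1E2 at -2.62 ± 0.35 (adjusted p = 0.0027). While 14 of 44 matched groups were at 0 counts, the list summed to 164 to 241 FPKM at 0 h, 165 to 209 at 12 h and 130 to 188 at 48 h. These groups were thus expressed in the leaves and do not mark root here. The part of these cell markers in the changes of the members was not tested.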

How the data were processed

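The deposited table gives a whole-number read count per gene and library, not normalized, together with FPKM as deposited by the authors. FPKM reads 0.0001 wherever the count is 0, and was then taken as 0. HISAT and StringTie are named, with neither role nor version, per the submitters' processing notes; genome build, annotation, strand setting and treatment of reads shared by copies were not given in the sources used here. Libraries were poly(A)-selected and paired-end (insert 300 ± 50 bp), per the labels' protocols.

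Counts of summed copies were scaled by TMM, and edgeR 4.0.16 (R 4.3.3) was run with its quasi-likelihood F-test over 19869 summed copies of at least 1 FPKM in at least 3 libraries, all 9 libraries in the fit, with Benjamini-Hochberg adjustment at 0.05. The SE is the log2 change divided by the square root of F. Single genes (50878) were fitted in the same way. The common coefficient of variation was 0.567 for summed copies and 0.843 for genes. A level of 3 counts corresponds to 0.0534 to 0.0751 CPM; floors and counting intervals cover counting error only. The test was checked on simulated counts in which 200 of 19869 groups were changed. Of 4-fold changes it recovered 26.9% for 12 h against 0 h, 29.9% for 48 h against 0 h and 22.4% for 48 h against 12 h. Of 16-fold changes it recovered 70.1%, 85.1% and 64.2%. The data held more calls (2637, 1371 and 4305 summed copies), which makes the adjusted threshold less strict than in the simulation. These shares are therefore not recovery rates for the data, and say only that 4-fold changes can go uncalled. Alternatives were median-of-ratios (RLE) factors, library totals, no filter, a filter at 5 FPKM, DESeq2 1.42.0, limma 3.58.1 on log2(FPKM + 1) or log2(FPKM + 0.1), the 6 libraries compared, a replicate block, single libraries left out, like libraries summed, single genes and copies summed over all chromosomes. Copy use of a pair of libraries was compared as the median, over 3482 groups, of the percentage of reads placed on different copies.

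Members and lists were chosen with earlier results of these data known. Each gene of the rule is described by its summed group of highest mean FPKM, with the most abundant copy, and lists by counts and by the member of smallest adjusted p against 0 h. The pattern for CCA1 was narrowed after it had matched YUCCA10.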

Additional observations from a re-analysis of the deposited data

How the results depend on the processing

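Of the 10 members, 7 were called at 12 h against 0 h, 4 at 48 h against 0 h and 5 at 48 h against 12 h. With the like libraries summed the counts were 0, 0 and 0. With a replicate block they were 4, 1 and 5. Samples that share a number showed little joint deviation (r of -0.07 to 0.07, and 2 of 9 libraries correlate best with their own number). With 3 libraries per time, some of them alike, this cannot exclude a pairing, and the labels state none. Leaving out 1 library gave 3 to 7, 1 to 4 and 5 to 5 calls. With only the 6 libraries compared, 1 member was called at 48 h against 0 h. Of 27 single genes, 1 was called at 48 h against 0 h and 8 at 48 h against 12 h. The cause of these differences was not tested, except that fewer libraries leave less information on the spread. Signs turned only for changes that did not pass: APRR2 of chromosome 3 at 12 h against 0 h without 0 h replicate 1 (-0.12, up to 0.69 without another library), and APRR3 at 48 h against 12 h with library totals (-0.25) and with limma at a pseudocount of 1 (-0.23) or 0.1 (-0.24). APRR9 isoform X2 turned at 12 h against 0 h with limma at 0.1 (0.21) and without 0 h replicate 1 (4.62), and at 48 h against 0 h with limma at 0.1 (1.11), the replicate block (1.05) and without 0 h replicate 1 (4.82). At 48 h against 12 h it turned with library totals (-0.33) and without 12 h replicate 1 (-0.25), 12 h replicate 3 (-0.40) or 48 h replicate 2 (-0.06). Leaving out 1 library moved it from -3.80 to 4.62, from -1.39 to 4.82 and from -0.40 to 2.99 in these 3 comparisons. APRR7 at 48 h against 12 h passed with library totals (-1.03) and with limma at 1 (-0.96) or 0.1 (-1.0). GIGANTEA at 12 h against 0 h ranged from -3.21 to -2.62 over 21 alternatives, and APRR5 from -7.88 to -3.88. Library totals gave 2852 higher and 1164 lower calls over all summed copies at 12 h against 0 h, where TMM gave 978 and 1659, and at 48 h against 12 h 1541 and 5080, where TMM gave 2444 and 1861. At 48 h against 0 h the split was 544 higher and 890 lower, against 708 and 663. Depth limits ADAGIO 3 at 48 h and APRR5 at 12 h, where few reads were counted.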
